A study of Mus musculus with 8 samples.

Results

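In all, 10 genes of the fibroblast growth factor (FGF) system were followed in mouse epididymal white fat: the ligand genes Fgf1, Fgf2, Fgf7, Fgf9, Fgf10 and Fgf21, the intracellular family member Fgf13, the receptor genes Fgfr1 and Fgfr2, and Klb, the gene of the co-receptor β-Klotho. They are 10 of the 28295 genes listed. The 10 were selected by gene name, with their levels in these same 8 libraries already known, so the contrast between the groups is given for them as a description, without p-values.

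Proteins of the FGF family act in 3 ways. Paracrine ligands such as FGF1, FGF2, FGF7, FGF9 and FGF10 bind heparan sulfate at the cell surface and activate receptor tyrosine kinases of the FGFR family, which signal through adaptor proteins to the ERK kinases. Endocrine ligands such as FGF21 bind heparan sulfate weakly and need a Klotho protein beside the receptor, and in adipocytes that pair is FGFR1 with β-Klotho. Members of the FGF11 to FGF14 group stay inside the cell, where they bind voltage-gated sodium channels and, in the case of FGF13, microtubules. In fat, FGF1 is known for the remodelling of the depot on rich diets, FGF10 for the formation of adipocytes from their precursors, and FGF21 for glucose uptake and adiponectin secretion.

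The libraries are poly(A) RNA from male mice fed a Western diet for 8 weeks and fasted for 6 h before the fat was taken. The WT group (4 libraries, WT1 to WT4) carried Cul3-flox/flox alleles and no Cre. The KO group (4 libraries, KO1 to KO4) carried the same floxed alleles together with AdipoQ-Cre, a recombinase driven by the promoter of the adipocyte gene Adipoq. All mice of both groups were thus homozygous for the floxed allele, and cells other than adipocytes in the depot are not targeted by this driver. Cullin 3, the product of Cul3, is the scaffold on which many ubiquitin ligases assemble, and the comparison asks what the loss of Cul3 from adipocytes does to the fat. Which library came from which animal is not given in the labels, so errors describe the spread between libraries.

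The Cul3 transcript was at 11.4, 9.66, 12.4 and 11.5 FPKM in WT1 to WT4 against 10.6, 11.2, 13.2 and 13.0 FPKM in KO1 to KO4, where FPKM is the number of fragments scaled to gene length in kilobases and to 1000000 mapped fragments. It was not lower under the KO label (log2 fold change 0.09 ± 0.10, limma adjusted p = 0.520), and the deleted exons cannot be told apart from the rest of the transcript in a value for the whole gene. The group is therefore called KO-labelled, and every direction below rests on the labels. Scaled to a sum of 1000000 per library, Cul3 was higher in the KO-labelled libraries (log2 fold change 0.37, limma adjusted p = 0.0477). Reads recovered from the FPKM values came to 15.2 to 19.7 M (M, 1000000 reads) per library in the listed genes. Of the 6 adipocyte markers, all 6 were lower in the KO-labelled group, with summed levels of 3734 to 5032 FPKM against 1480 to 2034 FPKM. The size of the fall differed between them: the means of Lep were 688 and 67.8 FPKM and those of Plin1 331 and 218 FPKM. Liver transcripts (5 markers) summed to 122 FPKM in WT1 and 453 FPKM in WT2, against 4.40 to 33.0 FPKM elsewhere. Epididymal transcripts (3 of 4 markers listed) summed to 45.4 FPKM in WT2 and 10.5 FPKM in KO1. The sum in WT2 was mainly Lcn5 (42.0 FPKM), with Adam7 and Lcn8 also present. That in KO1 was Adam7 alone, with Lcn5 and Lcn8 at 0. Macrophage markers (6) summed to 337 to 430 FPKM in WT1 to WT3 and 1093 FPKM in WT4, and to 799 to 1021 FPKM in KO1 to KO3 and 437 FPKM in KO4. The library WT4 thus had the lowest adipocyte and the highest macrophage sum of its group, and KO4 the reverse of that within its own. In whole tissue, fewer cells of a type and less RNA per cell cannot be told apart.

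Start-site sequences are shown for the 3 genes with the widest differences, Fgf13, Fgf10 and Klb, to show how unlike the promoters of these genes are. They come from RefSeq on build GRCm38.p6, whose windows run from 250 bases before a start site to 50 after it. Windows were found for 8 of the 10 genes. Fgf13, on the minus strand of chromosome X, has 4 RefSeq start sites, which give proteins with different first exons. The stretch before each start site is printed 5′ to 3′ on the strand of the gene, without annotated exon bases, and capitals mark CpG dinucleotides.
Fgf13, start site 59134436, chrX:59134437-59134686, minus strand: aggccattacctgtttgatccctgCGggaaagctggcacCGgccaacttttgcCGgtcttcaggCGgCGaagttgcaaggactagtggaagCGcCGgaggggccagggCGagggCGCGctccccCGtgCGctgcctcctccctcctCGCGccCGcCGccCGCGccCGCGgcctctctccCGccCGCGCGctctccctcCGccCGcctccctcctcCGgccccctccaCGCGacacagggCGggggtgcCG
Fgf13, start site 59585572, chrX:59585573-59585822, minus strand: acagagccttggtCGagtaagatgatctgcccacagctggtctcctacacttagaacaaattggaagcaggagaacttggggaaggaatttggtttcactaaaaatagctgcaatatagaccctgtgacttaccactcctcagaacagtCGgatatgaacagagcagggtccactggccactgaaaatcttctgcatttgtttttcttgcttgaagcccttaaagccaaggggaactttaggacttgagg
Fgf10, start site 118714699, chr13:118714449-118714698, plus strand: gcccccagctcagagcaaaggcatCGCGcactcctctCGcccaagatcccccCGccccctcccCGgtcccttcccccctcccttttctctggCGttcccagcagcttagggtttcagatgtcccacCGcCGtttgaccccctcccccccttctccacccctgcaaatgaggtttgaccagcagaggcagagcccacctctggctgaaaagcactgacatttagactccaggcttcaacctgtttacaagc
Klb, start site 65348411, chr5:65348161-65348313, plus strand: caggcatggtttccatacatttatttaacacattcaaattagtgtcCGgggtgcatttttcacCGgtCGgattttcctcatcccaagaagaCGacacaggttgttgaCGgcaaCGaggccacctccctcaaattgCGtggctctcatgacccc
The Fgf13 stretch before 59134436 holds 31 CpG in 250 bases and the one before 59585572 holds 2. Over whole windows of 300 bases, the 4 Fgf13 start sites had 37, 6, 40 and 3 CpG in order of their coordinate. Of the 32851 windows in the RefSeq table, 94.4%, 43.6%, 96.1% and 23.3% had fewer. Fgf13 therefore has CpG-rich and CpG-poor start sites, and the deposited value per gene does not say which of them was in use. The start site at 59585572 lies outside the annotated Fgf13 interval used here, which ends at 59568071. Fgf10 and Klb each had 10 CpG in their window, more than 56.5% of windows. The letters TGACNNNGC, the core of the antioxidant response element bound by NRF2, were searched on both strands and occur in 12.4% of all windows. They were found once in the Klb window, at position -67 from the start site, once in that of Fgf9 and at 2 places in that of Fgf2. The Klb match lies after the printed stretch, past the annotated start of the gene at 65348314. The letters TTGCNNAA, a form of the site bound by C/EBP factors, occur in 10.8% of windows and were found in 1 of the 4 Fgf13 windows, that of the start site at 59166088. No match means only that these letters are not in the window.

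Across the 10 genes, 1 was called higher in the KO-labelled libraries (Fgf7), 4 were called lower (Fgf13, Fgf10, Klb and Fgf1) and 5 were not called (Fgf2, Fgf9, Fgf21, Fgfr1 and Fgfr2). A call is an adjusted p under 0.05 in limma over the 14400 genes with a mean of at least 0.5 FPKM, and all 10 genes passed that filter on low values. Among all genes tested 30.4% were called, 11.7% higher and 18.6% lower. The same 5 genes had ranges over 4 libraries that did not overlap between the groups, 1 above and 4 below WT. Over all genes 31.2% did not overlap, 12.1% above and 19.1% below. Because the 10 genes were chosen with this contrast known, nothing is read from these shares. Their median log2 fold change, on the log2(FPKM + 0.5) scale that understates the change of low genes, was -0.33, and that of all genes tested was -0.02.

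**Figure D1:**
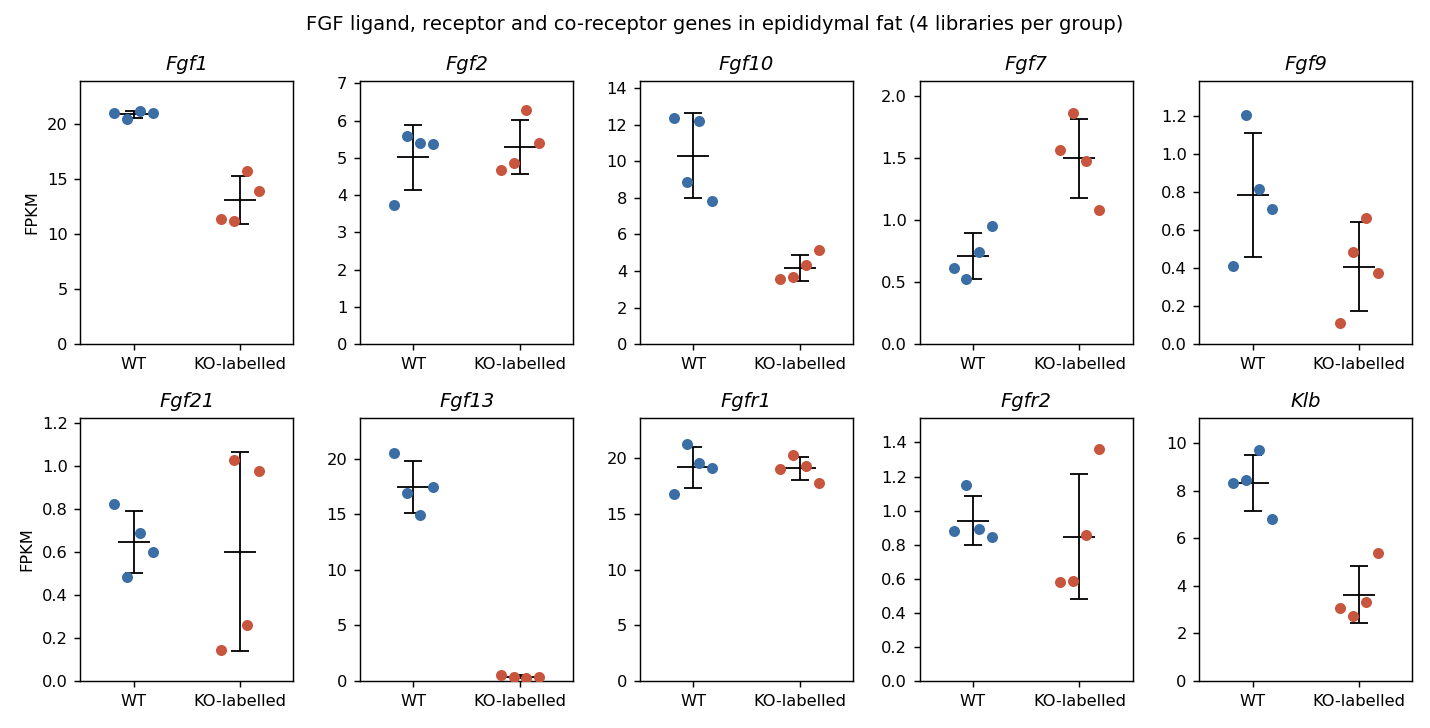
Level of each of the 10 FGF genes in FPKM, with a point for each library (4 WT, blue, and 4 KO-labelled, red), the mean as a long bar and the SD as whiskers. Fgf13, Fgf10, Klb and Fgf1 have every KO-labelled point under every WT point, Fgf7 has every one above, and the groups of the other 5 genes overlap.

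Among the ligands, Fgf1 was the most abundant. FGF1 can bind every FGF receptor, and its gene lies on chromosome 18 (38838673 to 38929472, minus strand). Its level was 20.9, 20.4, 21.2 and 21 FPKM in WT1 to WT4 against 11.4, 11.2, 15.7 and 13.9 FPKM in KO1 to KO4. The WT libraries were nearly equal, and KO1 and KO2 were the lowest. The means were 20.9 ± 0.329 FPKM for WT and 13.1 ± 2.18 FPKM for the KO-labelled group (SD, n = 4 each), a log2 fold change of -0.67 ± 0.11 (SE). The SD as a share of the mean was 1.58% in WT, the lowest of the 10 genes, and 16.7% in the KO-labelled libraries.

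Fgf10 encodes a ligand of the epithelial splice form of FGFR2 (chromosome 13, 118669791 to 118792115, plus strand). It was at 12.3, 8.85, 12.2 and 7.85 FPKM in WT1 to WT4 against 3.55, 3.69, 4.32 and 5.13 FPKM in KO1 to KO4. Every KO-labelled value lay under the lowest WT value, that of WT4, and KO4 was the highest of its group. Means were 10.3 ± 2.30 and 4.17 ± 0.719 FPKM (log2 fold change -1.20 ± 0.17), from 888 to 1448 recovered reads per WT library and 416 to 584 per KO-labelled library. Of the genes tested, 305 had a log2 fold change at or below that of Fgf10.

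Fgf7, also called keratinocyte growth factor, binds the same form of FGFR2 as Fgf10 and is made by stromal cells (chromosome 2, 126034658 to 126091185, plus strand). It differed from Fgf10 in direction. Its level was 0.616, 0.527, 0.739 and 0.952 FPKM in WT1 to WT4 against 1.56, 1.86, 1.47 and 1.08 FPKM in KO1 to KO4. The groups did not overlap, but WT4 and KO4 came close to each other. Means were 0.708 ± 0.184 and 1.5 ± 0.321 FPKM (log2 fold change 0.72 ± 0.16), on only 41 to 76 reads per WT library and 87 to 148 per KO-labelled library. The call was lost with the replicate number as a block and without WT1 and WT2 (log2 fold change 0.56). The ratio of Fgf10 to Fgf7 was 20.04, 16.8, 16.5 and 8.25 in WT1 to WT4 and 2.27, 1.98, 2.93 and 4.74 in KO1 to KO4. WT4 and KO4 stood nearest each other in this ratio too, which was looked at after the values were known.

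Fgf2, basic FGF, is a broadly expressed mitogen stored in the matrix (chromosome 3, 37348346 to 37410108, plus strand). It was at 3.72, 5.59, 5.40 and 5.37 FPKM in WT1 to WT4 against 4.69, 4.85, 6.30 and 5.40 FPKM in KO1 to KO4. The groups overlapped and WT1 was the lowest library, so that the means were 5.02 ± 0.872 and 5.31 ± 0.724 FPKM (log2 fold change 0.08 ± 0.14). The gene overlaps Nudt6 on the opposite strand, and without a stated strand setting the 2 can share reads. Nudt6 had means of 1.44 and 1.78 FPKM (log2 fold change 0.27 ± 0.20, limma adjusted p = 0.338).

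Fgf9 and Fgf21 were low and variable. Fgf9, a ligand of the mesenchymal receptor forms (chromosome 14, 58070547 to 58112720, plus strand), was at 0.413, 1.20, 0.816 and 0.709 FPKM in WT1 to WT4 against 0.111, 0.483, 0.666 and 0.374 FPKM in KO1 to KO4. The ranges overlapped through WT1, and the log2 fold change was -0.50 ± 0.25 on 15 to 134 reads per library. Fgf21, the endocrine ligand (chromosome 7, 45613886 to 45615490, minus strand), was at 0.825, 0.483, 0.688 and 0.599 FPKM in WT1 to WT4 against 0.144, 1.03, 0.260 and 0.977 FPKM in KO1 to KO4. The libraries KO2 and KO4 lay above every WT library and the other 2 below every one. The recovered reads of Fgf21 were 20, 11, 15 and 14 in WT1 to WT4 and 4, 24, 6 and 23 in KO1 to KO4. The group means were 0.649 ± 0.144 and 0.603 ± 0.465 FPKM, and the log2 fold change of -0.15 ± 0.30 lay within the spread between libraries.

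Fgf13, the intracellular family member, showed the widest difference of the 10 (ENSMUSG00000031137, chromosome X, 59062145 to 59568071, minus strand). Its level was 20.5, 16.9, 14.9 and 17.5 FPKM in WT1 to WT4 against 0.538, 0.365, 0.267 and 0.342 FPKM in KO1 to KO4. In WT the transcript was the third most abundant of the 10, below Fgf1 in each of the 4 libraries, and in every KO-labelled library it was near the floor of the 10 genes. The mean was 46.2 times higher in WT, a ratio exceeded by 29 of the 14400 genes tested. On the log2(FPKM + 0.5) scale the difference was -4.36 ± 0.12, and by voom on recovered reads -5.53. The reads behind it were 2104, 1631, 1377 and 1728 in WT1 to WT4 and 63, 36, 26 and 34 in KO1 to KO4. The transcript was thus detected in all 4 KO-labelled libraries.

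None of the 4 genes beside Fgf13 was called lower. Arhgef6, which lies 1723416 bases before it, was higher in the KO-labelled group (6.85 ± 0.937 against 9.75 ± 0.649 FPKM, log2 fold change 0.49 ± 0.10, limma adjusted p = 0.00922), a call lost without WT1 and WT2. Rbmx, an RNA-binding protein gene, was at 5.63 ± 0.409 and 6.71 ± 0.424 FPKM (0.23 ± 0.08, limma adjusted p = 0.0473), and this call was lost in 13 of 19 alternatives, among them the removal of any 1 library. On the other side, F9, the clotting factor IX gene, was under the filter at 0.240 and 0.0687 FPKM. Gm5637, a pseudogene, had a log2 fold change of -0.20 ± 0.13 (limma adjusted p = 0.262). Of the annotated features inside the Fgf13 interval, Gm26351, Mir504, Gm26487 and Gm14890, only Gm14890 has values here, at 0.0597 FPKM in WT, and it is listed at 0 in KO1 to KO4.

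The receptor genes overlapped between the groups. Fgfr1, the most abundant receptor gene (chromosome 8, 25513654 to 25575718, plus strand) was at 16.8, 21.3, 19.6 and 19.1 FPKM in WT1 to WT4 against 19.0, 20.3, 19.3 and 17.8 FPKM in KO1 to KO4. The groups lay on top of each other, with means of 19.2 ± 1.85 and 19.1 ± 1.05 FPKM and a log2 fold change of -0.00 ± 0.09 on 4227 to 5469 reads per library. Its sign depends on the setting (-0.07 to 0.27), the highest value being that scaled to a sum of 1000000. Fgfr2 (chromosome 7, 130162451 to 133123350, minus strand) was at 0.877, 1.15, 0.891 and 0.843 FPKM in WT1 to WT4 against 0.582, 0.589, 0.860 and 1.36 FPKM in KO1 to KO4. The KO-labelled libraries spread on both sides of the WT range, KO4 being the highest of all 8, and the log2 fold change was -0.13 ± 0.19. The annotated interval of Fgfr2 spans 2960900 bases and overlaps 69 other annotated genes, 30 of them protein coding. Reads may be shared where exons overlap, which was not examined. Fgfr1 made up 89.6% ± 2.37 of the summed FPKM of Fgfr1 to Fgfr4 in WT and 91.2% ± 4.92 in the KO-labelled group. The lowest share was 84.0%, in KO4, where Fgfr2 and Fgfr4 were highest.

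Klb, which makes FGFR1 responsive to FGF21 (chromosome 5, 65348314 to 65384007, plus strand), was at 8.33, 8.45, 9.70 and 6.81 FPKM in WT1 to WT4 against 3.06, 2.71, 3.33 and 5.38 FPKM in KO1 to KO4. Every KO-labelled value lay under every WT value, with WT4 and KO4 the nearest pair. Means were 8.32 ± 1.18 and 3.62 ± 1.20 FPKM (log2 fold change -1.13 ± 0.19), from 762 to 1011 reads per WT library and 302 to 606 per KO-labelled library. Per FPKM of Fgfr1, Klb was at 0.356 to 0.496 for WT against 0.133 to 0.303 for the KO-labelled libraries, so the balance of co-receptor to receptor transcripts did not overlap between the groups. The nearest genes were Rfc1, a replication factor gene, with a log2 fold change of 0.15 ± 0.07 (limma adjusted p = 0.117), and Rpl9, a ribosomal protein gene, with 0.02 ± 0.09 (limma adjusted p = 0.863). Lias, the lipoic acid synthetase gene, was lower (6.03 ± 0.685 against 4.72 ± 0.423 FPKM, -0.32 ± 0.10, limma adjusted p = 0.0376), a call lost in 10 of 19 alternatives. These include the removal of WT1, WT2, KO1, KO2 or KO3. On the far side of Fgf10, Paip1, which lies 636486 bases after it, was at 10.3 and 9.21 FPKM (-0.15 ± 0.06, limma adjusted p = 0.105). The nearer neighbours of Fgf10 on either side were under the filter on low values. Gm16263, whose interval overlaps Fgf10 on the opposite strand, was at 1.65 ± 0.816 and 0.813 ± 0.550 FPKM (-0.77 ± 0.43, limma adjusted p = 0.207). Without strand, reads from any exon bases the 2 share cannot be told apart, and overlap of their exons was not examined.

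Without WT1 and WT2, the libraries with liver transcripts, the log2 fold changes were -4.26 for Fgf13, -1.15 for Fgf10, -1.11 for Klb and -0.68 for Fgf1. Scaled to a sum of 1000000, they were -4.97, -1.0, -0.95 and -0.41. That scaling shifted the median over all genes from -0.02 to 0.24 on the log2 scale and the share of higher genes among all calls from 38.6% to 78.0%. Unscaled, the FPKM of all listed genes summed to less in each KO-labelled library than in any WT library. Of the reads in the FPKM denominator, 74.1% to 78.7% lay in listed genes in WT and 62.6% to 66.1% in KO-labelled libraries. The cause of this difference, and its part in the small unscaled falls, was not tested.

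Since FPKM is per length, levels can be set side by side. In WT the order was Fgf1, Fgfr1 and Fgf13 at 20.9, 19.2 and 17.5 FPKM, neighbours whose ranges overlapped. Fgf10 and Klb followed, overlapping each other and separate from the genes above them and from Fgf2 below. Fgf2 was separate from Fgfr2, Fgf9, Fgf7 and Fgf21, which had means of 0.649 to 0.941 FPKM. In that order each overlapped the next, while Fgfr2 and Fgf21 did not overlap. In the KO-labelled group Fgfr1 stood alone at the top, separate from Fgf1, and Fgf1 was separate from Fgf2, Fgf10 and Klb, which overlapped. The last 5 were Fgf7, Fgfr2, Fgf21, Fgf9 and Fgf13, each overlapping the next, with Fgf13 moved from the third to the last place.

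The 17 listed Fgf genes summed to 61.8 ± 2.77 FPKM for WT against 28.7 ± 2.93 FPKM for the KO-labelled group. Most of this difference lay in Fgf13, Fgf1 and Fgf10. The intracellular group Fgf11 to Fgf14 went from 22.1 ± 2.62 to 2.42 ± 0.424 FPKM and the 13 secreted Fgf genes from 39.7 ± 1.74 to 26.2 ± 3.26 FPKM. As shares of all Fgf FPKM, Fgf13 was at 28.3% ± 3.17 in WT and 1.36% ± 0.553 in the KO-labelled group, Fgf1 at 33.8% ± 1.32 and 45.4% ± 3.59, and Fgf2 at 8.18% ± 1.68 and 18.5% ± 1.02. The share of Fgf10 overlapped between the groups (13.2% to 19.5% against 13.5% to 16.8%), and that of Fgf7 was 1.15% ± 0.325 and 5.30% ± 1.48. These shares depend on what the total holds, since Fgf13 is part of it. Of the 13 secreted Fgf genes alone, Fgf1 made up 52.6% ± 1.63 in WT and 49.6% ± 3.02 in the KO-labelled group, with overlapping ranges, so of these 2 totals its share was higher only in the one that includes Fgf13. In the secreted total Fgf10 was separate between the groups, at 20.1% to 31.3% against 14.5% to 18.3%, and so was Fgf2, at 9.44% to 14.7% against 19.3% to 21.1%. Within the intracellular group the leading gene changed from Fgf13 (79.1% ± 4.97 in WT, 15.6% ± 3.25 in KO-labelled) to Fgf11 (20.2% ± 5.52 and 76.6% ± 4.77).

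**Figure D2:**
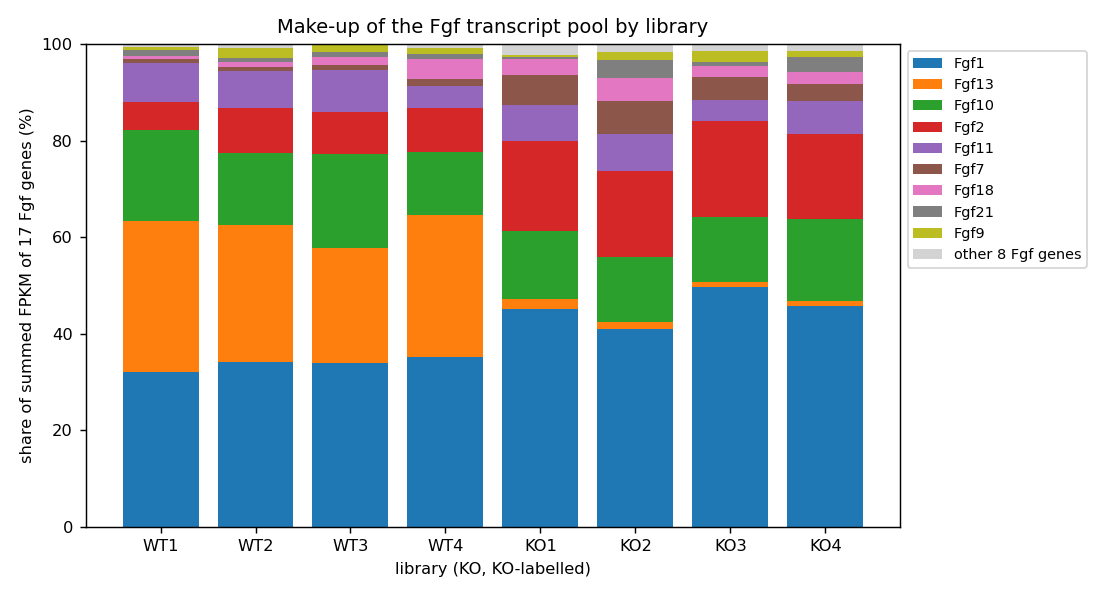
Share of each Fgf gene in the summed FPKM of the 17 listed Fgf genes (vertical axis, percent), with a stacked bar for each library (KO1 to KO4 are the KO-labelled ones). The Fgf13 band covers 23.9% to 31.4% of the WT bars and 0.844% to 2.13% of the KO-labelled bars, and Fgf1 is the largest band in all 8.

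Because the adipocyte markers were lower in the KO-labelled group, the 4 lower genes, Fgf11 and Fgfr1 were also set beside 2 adipocyte transcripts. Adipoq, the adiponectin gene, was at 628 ± 127 FPKM for WT against 314 ± 44.5 FPKM for the KO-labelled group, and Plin1, which coats the lipid droplet, at 331 and 218 FPKM. Per 1000 FPKM of Adipoq, Fgf13 was at 22.8 to 38.7 FPKM for WT against 0.892 to 1.72 FPKM for the KO-labelled libraries, and per 1000 FPKM of Plin1 at 44.0 to 65.0 and 1.17 to 2.78 FPKM. Fgf13 was thus separate between the groups on both ratios. Fgf10 overlapped on both, at 11.9 to 19.6 against 11.3 to 14.4 FPKM per 1000 FPKM of Adipoq and 23.0 to 37.9 against 17.6 to 23.3 FPKM per 1000 FPKM of Plin1. Klb overlapped per Adipoq (11.4 to 15.5 against 9.76 to 14.3 FPKM) and was separate per Plin1 (22.0 to 30.1 against 13.5 to 18.5 FPKM). Fgf1 overlapped on both, at 27.4 to 46.3 against 36.4 to 52.6 FPKM per 1000 FPKM of Adipoq. Fgf11 also overlapped on both, at 5.94 to 8.68 against 4.53 to 7.91 FPKM per 1000 FPKM of Adipoq. Per 1000 FPKM of Plin1, Fgf11 was at 9.98 to 16.8 against 7.06 to 10.6 FPKM. Fgfr1 was separate per Adipoq and higher in the KO-labelled group (24.3 to 42.3 against 47.3 to 75.3 FPKM). It overlapped per Plin1 (48.2 to 71.1 against 61.0 to 104 FPKM). The part of the lower adipocyte marker levels in the lower Fgf10, Klb, Fgf1 and Fgf11 levels was not tested. Endothelial markers also moved with the groups (4 of 5 lower, sums of 136 to 197 against 96.9 to 116 FPKM). So did the low sums of nerve and glia markers, which were higher (0.595 to 1.06 against 1.83 to 2.74 FPKM). Skeletal muscle markers summed to 14.4 to 44.9 against 8.44 to 10.5 FPKM, nearly all of it Acta1 (means 25.1 and 9.14 FPKM). Of the other markers in that list, Tnnt3 was at means of 0.225 and 0.206 FPKM, and Ckm and Myh4 were near the floor. The part of these lists was not tested either.

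**Figure D3:**
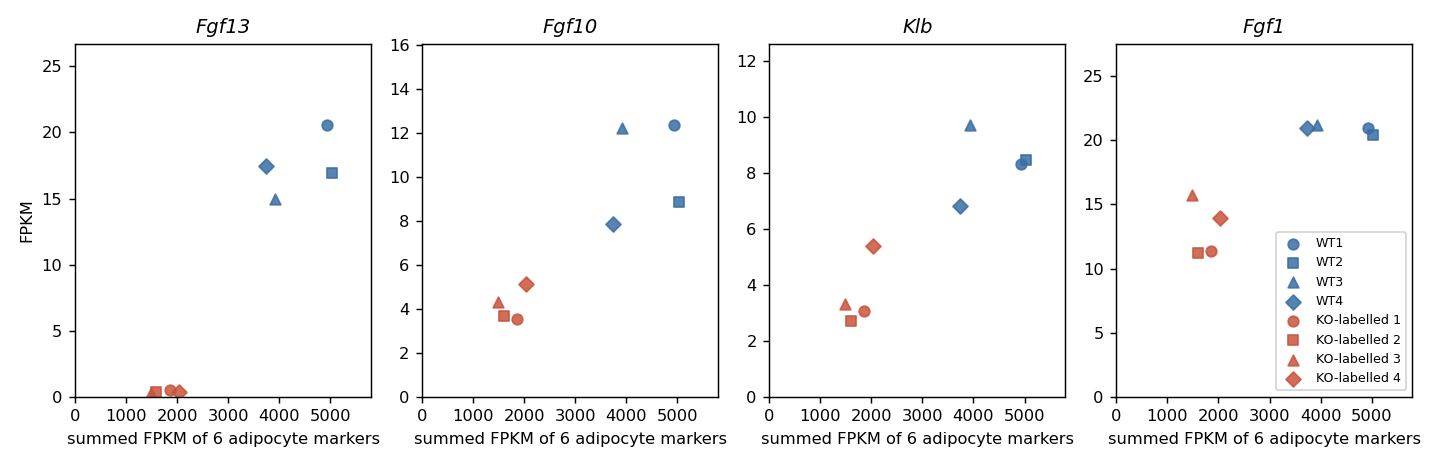
Level in FPKM of Fgf13, Fgf10, Klb and Fgf1 (vertical axes) against the summed FPKM of 6 adipocyte markers (horizontal axes), with a point for each of the 8 libraries (blue, WT; red, KO-labelled; shape, library number). The markers sum to 3734 to 5032 FPKM in WT and 1480 to 2034 FPKM in KO-labelled libraries, and the 2 groups form separate clouds in every panel.

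The genes with the most similar profiles were found for the 3 genes that differed by at least 1 on the log2 scale. The measure is the root mean square distance over the 8 libraries between profiles of log2(FPKM + 0.5), each centred on its mean, among 11141 genes with a mean of at least 1 FPKM. Nearest to Fgf13 were Rnase2a, a ribonuclease gene (distance 0.344), Fasn, the fatty acid synthase gene (0.385), and Paqr9 (0.453). Rnase2a was at 7.63 ± 0.840 and 0.0892 ± 0.142 FPKM and Fasn at 470.5 ± 69.1 and 33.0 ± 8.13 FPKM. Nearest to Fgf10 were Gnai1, an inhibitory G protein subunit (0.116), Zdhhc2, a palmitoyltransferase (0.134), and mt-Nd2, a mitochondrially encoded subunit of respiratory complex I (0.134). Nearest to Klb were mt-Nd4, another such subunit (0.1005), Gstz1, an enzyme of tyrosine breakdown (0.101), and mt-Nd2 (0.115). The lists of Fgf10 and Klb share mt-Nd2, which was at 2909 ± 438 and 1286 ± 389 FPKM. All these profiles share the 8 libraries and the split into 2 groups.

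The rest of the FGF system was followed through 102 further genes in 7 lists, of which 97 were listed and 70 tested. Of the 70, 5 were higher, 13 lower and 52 not called, where 11.7% of all genes tested were higher and 18.6% lower, with a median log2 fold change of -0.00 beside -0.02 over all genes tested. Among the other ligands, Fgf11 and Fgf18 were tested. Fgf11, the second intracellular member (chromosome 11, 69796068 to 69801857), also fell. It was at 5.23, 4.53, 5.42 and 2.69 FPKM in WT1 to WT4 against 1.86, 2.13, 1.36 and 2.06 FPKM in KO1 to KO4 (log2 fold change -1.05 ± 0.21, limma adjusted p = 0.00635). WT4 was again the lowest WT library, and the call was lost without WT1 and WT2. Fgf18, a ligand known from cartilage and lung, was at 1.11 ± 0.922 and 0.906 ± 0.247 FPKM and was not called (limma adjusted p = 0.928). Fgf4, Fgf5, Fgf6, Fgf8 and Fgf15 were not analysed here.

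Of the 7 other receptors, co-receptors and binding proteins, 4 were tested and 1 was lower. That gene was Lctl, a Klotho-family protein (54.6 ± 14.0 against 31.2 ± 5.63 FPKM, log2 fold change -0.78 ± 0.20, limma adjusted p = 0.0186), and its call was lost without KO3, without WT1 and WT2 and when scaled to a sum of 1000000. Fgfrl1, a receptor-like protein without a kinase, was at 76.4 ± 12.1 and 65.5 ± 5.91 FPKM and was not called (limma adjusted p = 0.262). Fgfr3 was at 1.17 ± 0.361 and 0.656 ± 0.227 FPKM (limma adjusted p = 0.0889).

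Downstream of the receptor, none of the 19 adaptors and kinases was higher and 4 were lower, the latter near the 18.6% of all genes tested. Hras, a small GTPase on the path to ERK, fell from 7.71 ± 1.13 to 4.41 ± 0.353 FPKM (log2 fold change -0.73 ± 0.11, limma adjusted p = 0.00168). Plcg1, the phospholipase C that binds activated FGF receptors, fell from 13.7 ± 1.08 to 10.3 ± 0.792 FPKM (-0.40 ± 0.08, limma adjusted p = 0.00877). Ptpn11, the phosphatase SHP2, fell from 27.7 ± 3.32 to 20.3 ± 1.85 FPKM (-0.44 ± 0.11, limma adjusted p = 0.0163), and Mapk3, which encodes ERK1, from 58.2 ± 5.93 to 44.0 ± 4.70 FPKM (-0.40 ± 0.11, limma adjusted p = 0.0245). The call of Hras held in all 19 alternatives. Those of Plcg1, Ptpn11 and Mapk3 were lost in 2, 5 and 7, in each case when scaled to a sum of 1000000 and without WT1 and WT2. KO3 ended the calls of Ptpn11 and Mapk3 when left out, and WT1, WT2 or KO4 that of Mapk3. Frs2, the adaptor docked on FGF receptors, was not called (3.79 ± 0.287 and 4.18 ± 0.254 FPKM, limma adjusted p = 0.248).

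Of the genes that FGF and ERK signalling commonly induce, 15 were tested, 1 was called higher and none lower. Among all genes tested 11.7% were higher and 18.6% lower, so most genes of any kind were not called. Spred1, an inhibitor of RAS activation, rose from 7.14 ± 1.43 to 10.6 ± 1.03 FPKM (log2 fold change 0.56 ± 0.13, limma adjusted p = 0.0148), a call lost with the replicate block and without WT1 and WT2. Dusp6, the ERK phosphatase, was at 12.0 ± 1.80 and 11.2 ± 1.24 FPKM (-0.09 ± 0.12, limma adjusted p = 0.606). Etv5, an ETS factor, was at 3.05 ± 0.523 and 3.93 ± 0.292 FPKM (0.33 ± 0.11, limma adjusted p = 0.0556), and Spry4, a Sprouty inhibitor, at 7.94 ± 0.741 and 6.35 ± 1.08 FPKM (-0.31 ± 0.12, limma adjusted p = 0.0762). The last 3 genes were named after their values were seen, as were Fgf18, Fgfrl1, Fgfr3 and Frs2.

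Of 22 heparan sulfate genes tested, 2 were higher and 5 lower, near the 11.7% and 18.6% of all genes tested. Gpc1, a glypican that carries heparan sulfate on the membrane, fell from 11 ± 2.44 to 3.81 ± 0.689 FPKM (log2 fold change -1.40 ± 0.17, limma adjusted p = 0.000742). Gpc4, another glypican known as an adipokine, fell from 29.9 ± 4.85 to 17.3 ± 2.0 FPKM (-0.76 ± 0.13, limma adjusted p = 0.00384). Sdc4, a syndecan, rose from 11.4 ± 3.29 to 22.9 ± 1.74 FPKM (1.01 ± 0.18, limma adjusted p = 0.00395). The carriers thus differed in direction. Extl3, an enzyme that starts the heparan sulfate chain, fell from 36.4 ± 1.86 to 25.0 ± 1.22 FPKM (-0.53 ± 0.07, limma adjusted p = 0.00118). These 4 calls held in all 19 alternatives.

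**Figure D4:**
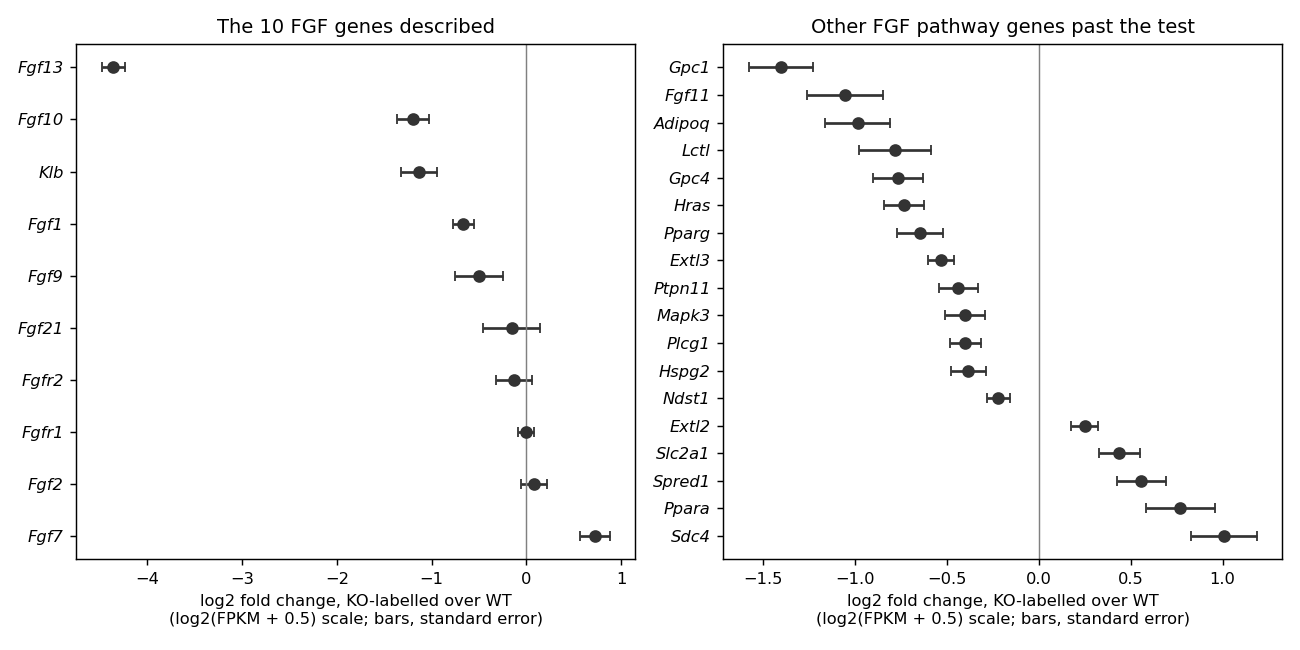
Log2 fold change, KO-labelled over WT, of the 10 FGF genes (left) and of the 18 other genes of the FGF system called by limma (right), with standard errors as bars, on the log2(FPKM + 0.5) scale. Fgf13 stands at -4.36 on the left, and on the right the values run from -1.40 for Gpc1 to 1.01 for Sdc4.

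Of the 14 sodium channel and scaffold partners of intracellular FGF proteins, 2 passed the filter and neither was called. Scn3b, a channel beta subunit, was at 0.309, 0.222, 0.479 and 0.231 FPKM in WT1 to WT4 against 0.515, 0.613, 1.78 and 0.747 FPKM in KO1 to KO4 (log2 fold change 0.74 ± 0.26, limma adjusted p = 0.0633). Its ranges did not overlap, and it passed the test without KO1, when scaled to a sum of 1000000 and by voom. The sodium channel list therefore has no called member beside the fall of Fgf13.

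Of the 6 regulators of Fgf21 and genes induced by FGF21, 2 were higher and 2 lower, beside 11.7% and 18.6% of all genes tested, a list too short to set against those shares. Ppara, a nuclear receptor that drives Fgf21 in liver, rose from 0.966 ± 0.294 to 2.0 ± 0.525 FPKM (log2 fold change 0.77 ± 0.19, limma adjusted p = 0.0158), and Slc2a1, the glucose transporter GLUT1 that FGF21 induces, from 3.68 ± 0.468 to 5.16 ± 0.611 FPKM (0.44 ± 0.11, limma adjusted p = 0.0183). Pparg, the adipocyte regulator that drives Fgf1 and Fgf21 in fat, fell from 52.1 ± 6.05 to 33.2 ± 5.0 FPKM (-0.65 ± 0.12, limma adjusted p = 0.00579). Adipoq fell by 0.98 on the log2 scale (SE 0.18, limma adjusted p = 0.00408). The calls of Ppara and Slc2a1 were lost with the replicate block and without WT1 and WT2, that of Slc2a1 also without KO3, and that of Adipoq without WT1 and WT2. Pparg held in all 19 alternatives.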

How the data were processed

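Poly(A) RNA of 8 libraries (4 WT, 4 KO-labelled) was sequenced. The authors deposited 1 table of FPKM values for 28295 genes. Per the submitters' processing notes, the tools were HISAT2 2.0.5 and featureCounts and the build was mm10. The strand setting and the annotation release are not given in the sources used here. Of the gene IDs, 28279 matched GENCODE M21, which gave coordinates and exon lengths. Whole reads were recovered from the steps of the FPKM values: of the values worth 0.5 to 200 reads, 97.9% to 98.0% were whole within a tolerance of 0.02 reads. For Fgf1 this could not be done. The FPKM denominators were 22.9 to 29.1 M (M, 1000000 reads).

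The comparison of KO-labelled with WT was fitted with limma 3.58.1 (limma-trend, robust, R 4.3.3) on log2(FPKM + 0.5), two-sided and without covariates. Genes averaging at least 0.5 FPKM were tested (14400), and p-values were adjusted over them by Benjamini-Hochberg. Errors beside means are SDs and beside fold changes moderated SEs. The fit was tested on simulated data. Same-numbered libraries did not vary together, so the block with replicate number was only an alternative. Other alternatives were 2 pseudocounts, 2 filters, 3 scalings, limma without trend, each library left out, WT1 and WT2 left out, and voom on recovered reads.

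The 10 genes and all gene lists were chosen with earlier results of these data known. Genes were named by rule: the 10 genes, Cul3, up to 4 called genes per list by adjusted p (without a call, the 2 most abundant), the genomic neighbours, overlapping genes and 3 nearest profiles of genes differing by at least 1 on the log2 scale, and markers. Of these, 1 result under this rule is not reported here. The ratios to Adipoq, Plin1, Fgfr1 and Fgf7 and the sums of Fgf genes were added after the values were seen. Start-site windows are from RefSeq, GRCm38.p6. Other steps used Python 3.11.15 with pandas 2.3.3, numpy 2.4.6, matplotlib 3.10.9 and scipy 1.17.1.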

Additional observations from a re-analysis of the deposited data

Results flagged for a closer look

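In 20 groups of 4 libraries (10 genes, 2 groups each), 1 library stood far from the other 3 of its group in 2 cases, and about 1 group in 20 is expected to do so by chance. Fgf2 was at 3.72 FPKM in WT1, against 5.37 to 5.59 FPKM in the other WT libraries, and this gap was 0.882 of the whole range, above Dixon's critical value for 4 samples. Fgfr2 was at 1.15 FPKM in WT2, against 0.843 to 0.891 FPKM in the other WT libraries (0.843 of the range).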

How the results depend on the processing

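The 4 lower FGF genes kept their direction and call in every alternative that gave them a value (Fgf1 had no recovered reads for voom). No called gene of the text changed sign. Fgf2, Fgf21, Fgfr1 and Fgfr2, which were not called, changed sign in 2, 1, 6 and 1 alternatives. The single higher call, Fgf7, went to 0 with the replicate block and to 0 without WT1 and WT2. Over all genes, 4226 were higher and 1190 lower scaled to a sum of 1000000, 1113 higher with the replicate block, 729 higher and 1029 lower without WT1 and WT2, and 1100 to 1938 higher and 1862 to 2794 lower with 1 library left out (lowest without WT1, highest without WT4). Pathway genes called higher numbered 23 scaled to a sum of 1000000, 11 with quantile normalization, 2 with the replicate block, 8 by voom, 1 without WT1 and WT2 and 3 (without KO3) to 8 (without KO1) with 1 library left out. Those called lower numbered 7, 9, 11, 13, 5 and 8 (without KO3) to 16 (without WT4). Cul3 passed the test scaled to a sum of 1000000 (0.37). Correlations of deviations between same-numbered libraries were -0.06, -0.13, 0.17 and -0.32, so these libraries did not vary together. The labels do not say whether the replicate numbers pair libraries. Fgf7, Fgf9 and Fgf21 rest on few reads, which limits their precision. The causes of these changes were not tested.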

Other observations

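Spry3, a Sprouty-family gene, lay under the filter on low values and was not tested. It had 59, 44, 41 and 56 recovered reads in WT1 to WT4 and 3, 16, 6 and 13 in KO1 to KO4, so the ranges did not overlap. Etv1, an ETS factor of the same list and also under the filter, was separate in the other direction. Its levels were 0.242 to 0.453 FPKM in WT and 0.498 to 0.649 FPKM in the KO-labelled group. Fgfr4 and Kl, the gene of α-Klotho, were nearly confined to 1 library: Fgfr4 had 114 reads in KO4, 40 in WT2 and at most 4 in the other 6, and Kl had 59 reads in KO4 and at most 2 in the others. Mmp7 was at 10.3 FPKM in KO4 and at most 0.0391 FPKM in the other 7. These genes were picked after their values were seen.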
